A study of Mus musculus with 8 samples.

Results

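The genes described here encode the proteins of the cytosolic ribosome of the mouse. They were chosen by name: protein-coding genes whose symbol is Rpl or Rps followed by a number, with Rpsa, the acidic stalk proteins Rplp0, Rplp1 and Rplp2, and numbered forms ending in a, l, x, al or l1, each counted once per gene identifier. The rule uses no measured value. It took 82 of the 13388 genes in the deposited table, of which 46 belong to the large subunit, 30 to the small subunit and 6 are paralogues (Rpl3l, Rpl7l1, Rpl22l1, Rpl36al, Rpl39l and Rps27l). The rule leaves out proteins of or on the ribosome that carry other kinds of name, and Rps3a1, Fau and Rack1 among these are given separately.

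The study measured RNA from wild-type mouse bone marrow cells of 2 kinds, Ly6C+ classical monocytes and cMoPs (common monocyte progenitors, the committed precursor of the monocyte). After sorting they were kept for 6 hours on a layer of OP9 (stromal cells of mouse bone marrow, grown as a line) or of OP9-DLL1, the same line displaying the Notch ligand DLL1. The 4 groups were thus monocytes on OP9, monocytes on OP9-DLL1, cMoPs on OP9 and cMoPs on OP9-DLL1, with 2 libraries each. The genotype of all of them was wild type, with no further allele or agent named. The labels give neither strain nor age, and they do not say whether the libraries of a group came from different mice or different wells. The p-values therefore rest on a spread between libraries that may be technical only.

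Each ribosome holds 1 copy of most of these proteins, and their genes are among the most strongly transcribed in a growing cell. Their mRNAs characteristically begin with a C followed by an unbroken run of pyrimidines, the terminal oligopyrimidine (TOP) motif, through which the mTOR pathway and the RNA-binding protein Larp1 set how far they are translated and how long they last. Ribosomal proteins made in excess are degraded, and a few of them bind Mdm2 and so link ribosome assembly to p53.

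The start of the gene is where that shared feature lies, so 8 windows of 60 bases (40 before the annotated start, then the start base and the 19 after it) are printed here from the RefSeq promoter table for GRCm38.p6, 5′ to 3′ on the strand of the gene. Capitals mark the unbroken run of C and T that covers the annotated start base. The first pair are Rps27, which did not differ past the threshold between the cell types, and Rps9, which was higher in cMoPs by a small amount. The next 4 are members with wider differences and such a run, and the last pair are members with some of the largest differences but no pyrimidine at the annotated start.
Rps27 (chr3:90213629-90213688, minus strand): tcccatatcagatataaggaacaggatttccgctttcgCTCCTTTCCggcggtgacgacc
Rps9 (chr7:3704001-3704060, plus strand): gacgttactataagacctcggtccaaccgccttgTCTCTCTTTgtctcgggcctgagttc
Rps6 (chr4:86857348-86857407, minus strand): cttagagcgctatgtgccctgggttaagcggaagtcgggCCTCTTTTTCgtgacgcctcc
Rps18 (chr17:33955646-33955705, minus strand): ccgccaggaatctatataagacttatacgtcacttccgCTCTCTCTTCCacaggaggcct
Rpl28 (chr7:4792925-4792984, plus strand): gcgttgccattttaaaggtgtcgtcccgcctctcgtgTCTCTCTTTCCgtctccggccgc
Rpl14 (chr9:120571477-120571536, plus strand): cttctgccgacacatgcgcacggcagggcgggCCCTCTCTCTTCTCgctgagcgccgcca
Rpl12 (chr2:32961672-32961731, plus strand): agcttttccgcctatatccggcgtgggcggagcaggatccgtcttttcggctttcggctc
Rpl5 (chr5:107900488-107900547, plus strand): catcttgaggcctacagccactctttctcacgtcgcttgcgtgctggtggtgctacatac

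RefSeq entries were matched by symbol for 62 of the 82 members. A run of at least 5 pyrimidines over the annotated start was present in 18 of them (29.0%), against 9.95% of all 27025 promoters in the table. Within 10 bases of the annotated start such a run was found in 35 members (56.5%) and in 35.8% of all promoters. The start base itself was C in 20 members (32.3%) and in 16.2% of all promoters. In the full 300 bases (250 before the start and 50 from it), searched on both strands, CCGGAAG, the core letters of an ETS-type site, was in 24 members (38.7%) against 9.12% of all promoters. GCCATCTT, core letters of a YY1-type site, was in 5 members (8.06%) against 2.88%. The Sp1-type motif GGGCGGG was in 29 members (46.8%) against 25.8%. TATAAA was in 6 members (9.68%) against 14.2%, and the E-box CACGTG was in 5 (8.06%) against 7.24%. These are matches of letters and not measured sites, and the annotated start may differ from the start used in these cells. Of the 52 matched members that were higher in cMoPs on both stromas (below) 15 had the run over the start, as did 3 of the other 10.

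The libraries held 47316323 to 62459962 reads over the genes of the table, and 100% of the values were those of whole reads. All 82 members passed the filter of at least 1 CPM (the reads of a gene scaled by an adjusted library size to a common total) in at least 2 libraries. They were tested among 13374 genes. The 10 markers of monocytes summed to 27987 to 45486 CPM in monocyte libraries and 6023 to 7398 CPM in cMoP libraries. By gene, 8 of these 10 were lower and 2 higher in cMoPs on each stroma. The 9 measured of 10 progenitor markers summed to 341 to 800 CPM in monocyte libraries and 15224 to 22536 CPM in cMoP libraries. Of the marker lists of other cells, neutrophil markers (10 of 11 measured) summed to 1612 to 2410 CPM in monocyte and 551 to 627 CPM in cMoP libraries, stromal markers (7 of 19) to 6.93 to 29.2 and 2.56 to 6.16 CPM, and lymphocyte markers (3 of 10) to 13.1 to 19.6 and 226 to 379 CPM. The sums of 4 of 8 dendritic cell markers were 5.89 to 35.7 CPM in monocytes and 44.7 to 114 CPM in cMoPs, but only 1 of the 4 was higher in cMoPs on each stroma, and 1 was lower on OP9 and 2 on OP9-DLL1. The sums of 3 of 9 erythroid and megakaryocyte markers overlapped between the cell types, with 114 and 196 CPM in monocytes on OP9, 24.6 and 15.7 on OP9-DLL1, and 7.04 to 20.9 in cMoPs. Their part in the results below was not tested. Mki67, a proliferation marker among the 9 measured progenitor markers, stood at 72.9 to 166 CPM in monocytes and 110 to 137 CPM in cMoPs. It passed in neither cell type comparison, while 8 of the 9 were higher in cMoPs on OP9 and 7 on OP9-DLL1.

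Ribosomal protein genes took up a larger share of the reads in cMoPs than in monocytes. In monocytes on OP9 the 82 genes held 5.05% and 5.95% of all reads (mean 5.50% ± 0.637, SD, n = 2). In monocytes on OP9-DLL1 they held 5.55% and 6.06% (5.81% ± 0.359, n = 2). In cMoPs the shares were 10.8% and 10.8% on OP9 (10.8% ± 0.00283, n = 2) and 10.4% and 10.9% on OP9-DLL1 (10.6% ± 0.365, n = 2). Every cMoP library lay above every monocyte library, and the groups on OP9 and OP9-DLL1 overlapped within monocytes and within cMoPs. Large subunit genes took 2.72% to 3.38% of reads in monocytes and 5.98% to 6.32% in cMoPs, and small subunit genes 2.27% to 2.63% and 4.29% to 4.53%. The ratio of large to small subunit reads was 1.20 to 1.28 in monocyte libraries and 1.38 to 1.42 in cMoP libraries. A CPM here is relative to an adjusted library size, below the reads in every monocyte library and above them in every cMoP library. For replicate 1 on OP9 it was 43312372 against 47316323 reads in monocytes and 66166903 against 62459962 in cMoPs. The gap between the cell types is thus narrower in CPM than in these shares. Both are relative measures, so a higher value says that more of the sequenced RNA came from these genes. In bulk samples fewer cells of a type and less RNA per cell cannot be told apart.

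**Figure D1:**
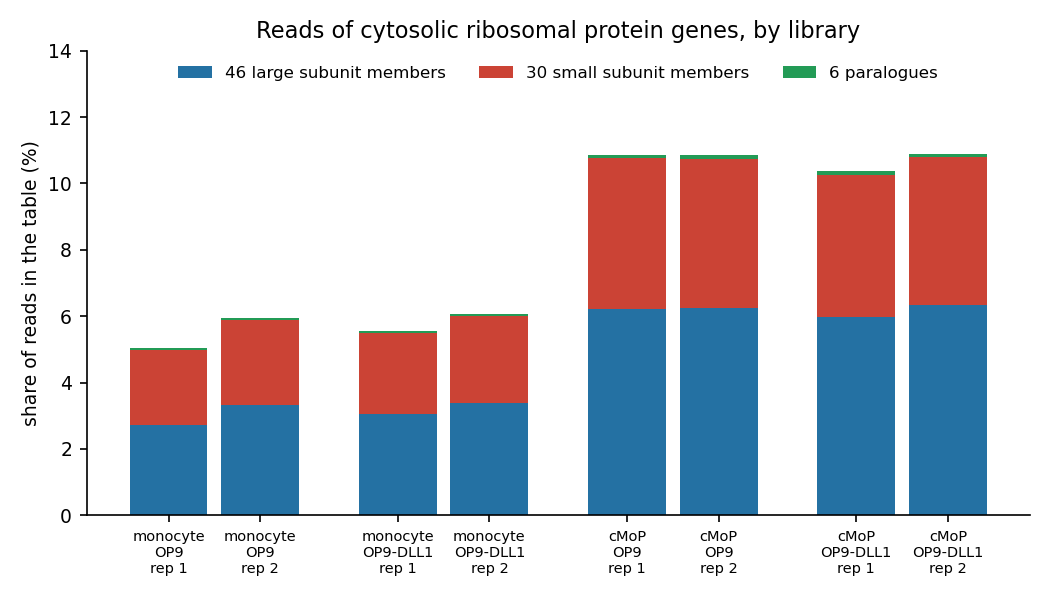
Share of the reads of each library, in percent, that fell on the 82 ribosomal protein genes, stacked by large subunit, small subunit and paralogues, for the 8 libraries. The 4 cMoP libraries stand between 10.4% and 10.9%, and the 4 monocyte libraries between 5.05% and 6.06%.

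The comparison of cMoPs with monocytes asks how the progenitor and its progeny differ, and it was made on each stroma apart with libraries that are not shared. On OP9, 74 of the 82 members were higher in cMoPs and 1, Rpl3l, was lower (limma-trend, Benjamini-Hochberg adjusted p under 0.05). That is 90.2% and 1.22% of members, where 28.8% of all genes tested were higher and 27.7% lower. On OP9-DLL1 the counts were again 74 higher and 1 lower, the latter again Rpl3l, against 28.2% and 29.2% of all genes. The median member difference was 0.86 on the log2 CPM scale on OP9 (1.82-fold) and 0.82 on OP9-DLL1 (1.77-fold), while the medians over all genes were 0.01 and -0.01. All 4 cMoP libraries lay above all 4 monocyte libraries for 73 members, a pattern held by 31.1% of genes tested. They lay below for 1 member, against 29.7% of genes tested. Of the 82 members, 71 were higher on both stromas and 4 (Rps27, Rpl24, Rpl36al and Rpl39l) passed on neither.

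The differences of the members lay closer together than those of all genes. Their standard deviation across members was 0.57 log2 units on OP9 and 0.58 on OP9-DLL1, against 1.59 and 1.63 over all genes. This was not particular to the members. The initiation factor genes described below had 0.54 and 0.62, and the further TOP mRNAs 0.53 and 0.68. The translation lists below ran from 0.40 to 1.09 on OP9 and from 0.59 to 1.37 on OP9-DLL1. Across the 82 members the OP9 and OP9-DLL1 differences correlated with Pearson's r = 0.87 and Spearman's rho = 0.79, and across all 13374 genes with r = 0.91 and rho = 0.91. Genes are not independent replicates, and these are descriptions only. By subunit, 44 of 46 large subunit genes were higher on OP9 and 43 on OP9-DLL1, with medians of 0.90 and 0.83. Of the 30 small subunit genes 28 were higher on each stroma, with medians of 0.79 and 0.77. The 6 paralogues were mixed, with 2 higher and 1 lower on OP9 and 3 higher and 1 lower on OP9-DLL1.

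**Figure D2:**
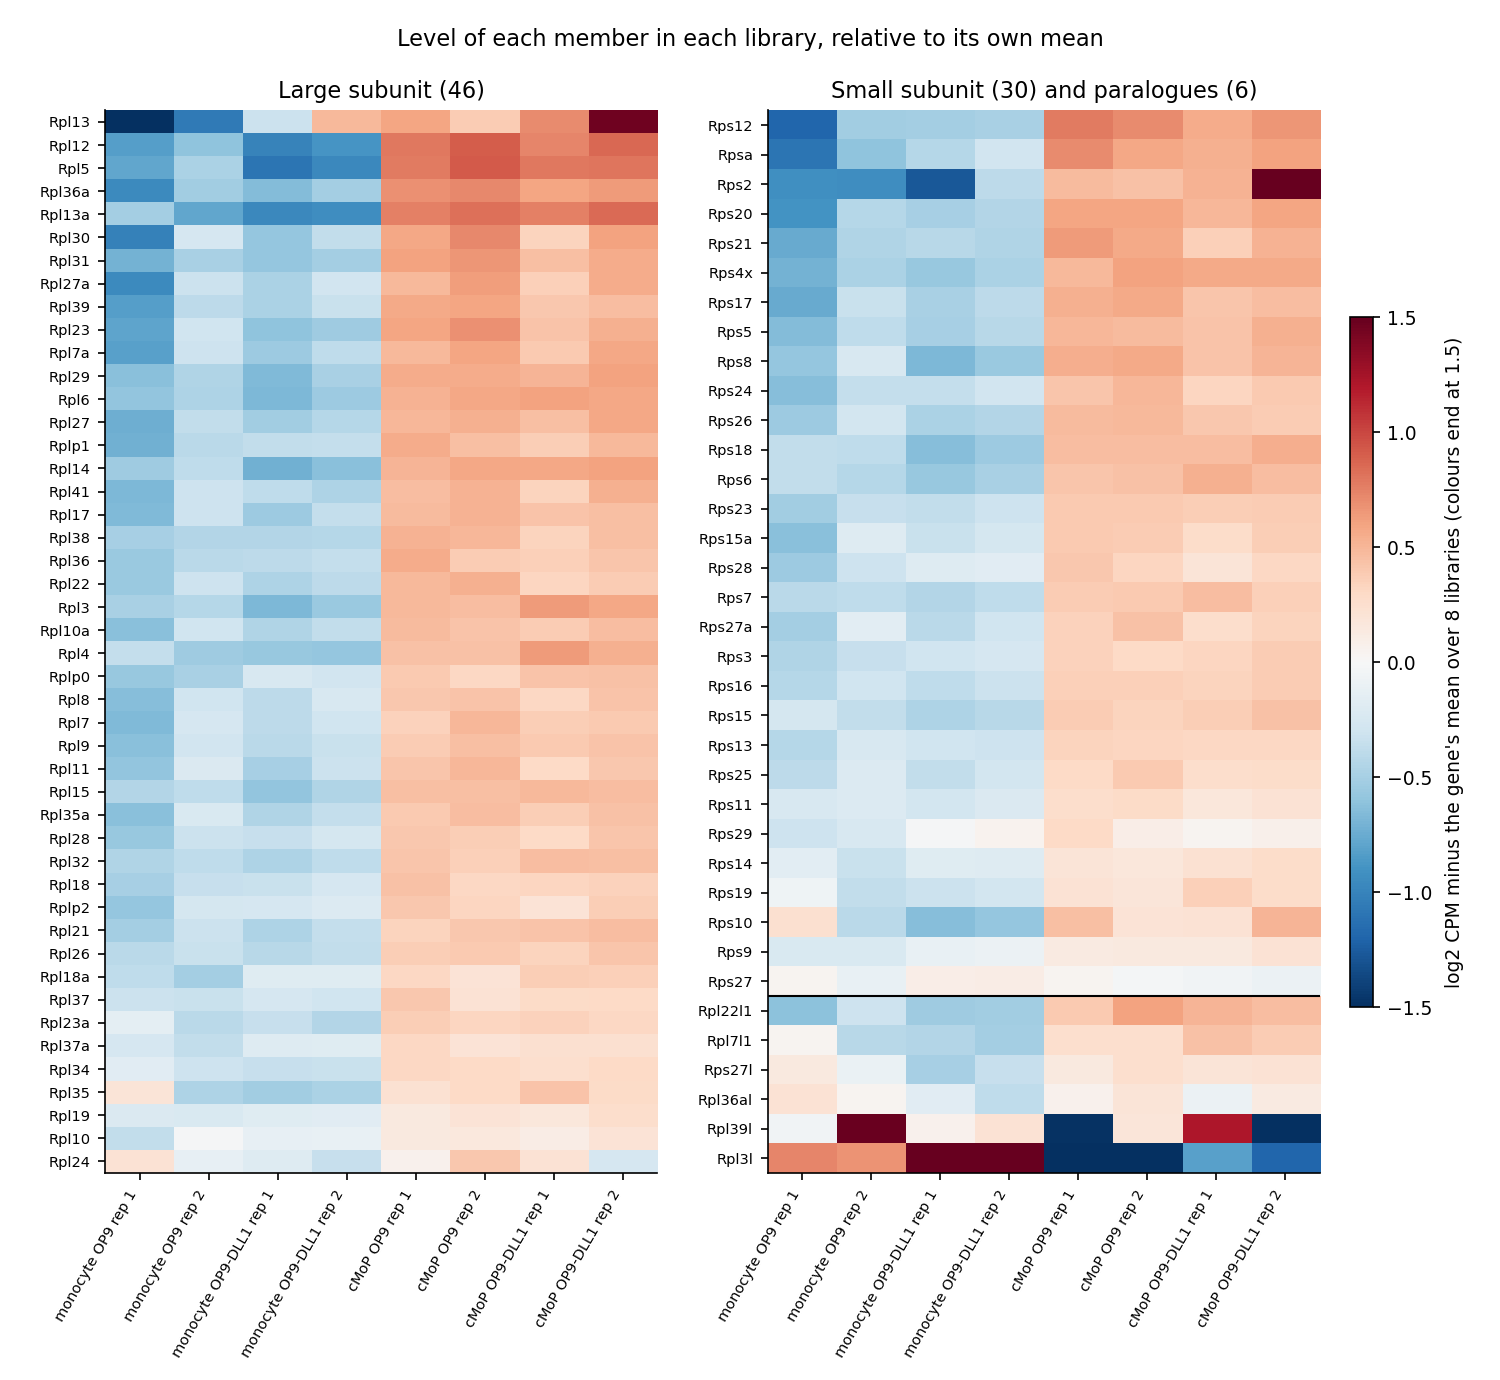
log2 CPM of each of the 82 members in each of the 8 libraries, less the mean of that gene over the libraries, with rows ordered by the cMoP minus monocyte difference on OP9 within large subunit genes (left) and within small subunit genes and paralogues (right, split by a line). Colours end at 1.5, and nearly all rows pass from blue in monocytes to red in cMoPs, with Rps27, Rpl24, Rps29 and several paralogues as the exceptions.

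Among large subunit genes the widest differences on OP9 were in Rpl13, Rpl12, Rpl5, Rpl36a and Rpl13a, and on OP9-DLL1 in Rpl5, Rpl13a, Rpl12, Rpl14 and Rpl3. Rpl12, a protein at the base of the ribosomal stalk, stood at 193 and 226 CPM in monocytes on OP9, 170 and 185 on OP9-DLL1, 592 and 643 in cMoPs on OP9 and 570 and 623 on OP9-DLL1. Its 4 cMoP values were all well above its 4 monocyte values. The difference was 1.56 log2 units on OP9 (SE 0.12, limma-trend adjusted p = 8.3e-06) and 1.75 on OP9-DLL1 (SE 0.12, adjusted p = 3.3e-06).

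Rpl5 and Rpl11 assemble together with a small ribosomal RNA, and the free complex binds Mdm2. Rpl5 had 529 and 657 CPM in monocytes on OP9, 427 and 467 on OP9-DLL1, 1568 and 1719 in cMoPs on OP9 and 1576 and 1592 on OP9-DLL1. Monocytes and cMoPs were again apart in every library. The limma-trend difference was 1.48 (SE 0.13, adjusted p = 1.5e-05) on OP9 and 1.83 (SE 0.13, adjusted p = 3.4e-06) on OP9-DLL1. Rpl11, at 597, 773, 639 and 716 CPM in the monocyte libraries and 1109 to 1274 CPM in the cMoP libraries, differed by 0.86 and 0.77 (limma-trend adjusted p = 0.00062 and 0.0011), nearer to the members' median. Of Rpl5's transcript, 46.6% overlaps Fam69a on the opposite strand, and the library kit does not mark strand. Fam69a was at 59.9 to 131 CPM, below Rpl5 in every library.

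Rpl36a rose from 138 to 189 CPM in monocytes to 403 to 442 CPM in cMoPs, by 1.44 and 1.19 (limma-trend adjusted p = 4.1e-05 and 0.00012). Rpl13a, which also takes part in a complex that silences inflammatory mRNAs, was counted at only 22.7 to 31.2 CPM in monocytes and 75.0 to 80.0 CPM in cMoPs. It differed by 1.43 and 1.75 (limma-trend adjusted p = 2.9e-05 and 7e-06). Its annotated exons overlap those of Gm45713 on the same strand for 59.3% of its length. Gm45713 is not among the genes of the deposited table. How reads of the overlap were counted is not known, so the level of Rpl13a is uncertain. Rpl14 and Rpl3, the latter beside the centre where peptide bonds form, differed on OP9-DLL1 by 1.27 and 1.22 (limma-trend adjusted p = 9.9e-06 and 9.4e-06), against 1.0 and 0.93 on OP9.

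The stalk proteins Rplp0, Rplp1 and Rplp2, which recruit elongation factors, were each higher in cMoPs on both stromas. Rplp0 had 2173 to 2738 CPM in monocytes and 4019 to 4376 in cMoPs, Rplp1 451 to 578 and 956 to 1089, and Rplp2 676 to 878 and 1167 to 1347. Their differences on OP9 were 0.88, 1.06 and 0.79 and on OP9-DLL1 0.69, 0.79 and 0.52, all past the threshold, though Rplp2 on OP9-DLL1 was not without cMoP replicate 2.

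In the small subunit the largest differences on OP9 were in Rps12, Rpsa and Rps2, and on OP9-DLL1 in Rps2 and Rps12. Rps12 stood at 145 and 231 CPM in monocytes on OP9, 233 and 236 on OP9-DLL1, 566 and 539 in cMoPs on OP9 and 485 and 525 on OP9-DLL1. It was apart between the cell types in every library, by 1.59 on OP9 (SE 0.19, limma-trend adjusted p = 0.0001) and 1.11 on OP9-DLL1 (SE 0.19, adjusted p = 0.00083). Rpsa, also known as the laminin receptor precursor, had 867 and 1228 CPM, 1381 and 1522 CPM, 3038 and 2778 CPM, and 2684 and 2825 CPM in the same order of groups. Its difference was 1.49 (SE 0.16, limma-trend adjusted p = 5.3e-05) on OP9 and 0.93 (SE 0.16, adjusted p = 0.00086) on OP9-DLL1.

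Rps2, near the mRNA entry channel, had 90.1 and 89.2 CPM in monocytes on OP9 and 70.3 and 129 on OP9-DLL1, 236 and 231 in cMoPs on OP9, and 244 and 715 on OP9-DLL1. One cMoP library, replicate 2 on OP9-DLL1, stood far above all others. The limma-trend difference on OP9-DLL1 was 2.13 (SE 0.43, adjusted p = 0.0022), and 1.36 (adjusted p = 0.00798) without that library. On OP9 it was 1.38 (SE 0.43, limma-trend adjusted p = 0.021). It did not pass there with the voom fit that weights libraries, by the authors' own adjusted p, without the mean-variance trend or without either cMoP library on OP9. Annotated copies of Rps2 in the table summed to 6.5 to 17.2 CPM in 7 libraries and to 31.3 CPM in that same library.

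Other named small subunit genes differed less on OP9. Rps6, which is phosphorylated downstream of mTOR, had 1201 to 1377 CPM in monocytes and 2382 to 2583 in cMoPs, with differences of 0.83 and 1.03 (limma-trend adjusted p = 0.0001 and 2.3e-05). Rps27a, which is made as a fusion with ubiquitin, had 663 to 846 and 1130 to 1276 CPM, with differences of 0.73 and 0.65. Rps19, the gene most often mutated in Diamond-Blackfan anaemia, had smaller differences, with 2293 to 2828 CPM in monocytes and 3370 to 3810 in cMoPs. They were 0.42 (SE 0.12) and 0.62 (SE 0.12), with limma-trend adjusted p = 0.015 and 0.0019. The first of these calls was lost without either cMoP library on OP9, without the mean-variance trend and with only the 4 libraries of the comparison. Rps14, at 2152 to 2442 CPM in monocytes and 3048 to 3296 in cMoPs, differed by 0.43 and 0.44 (limma-trend adjusted p = 0.0068 and 0.0053), and each of these calls was lost without 1 cMoP library (replicate 1 on OP9 and replicate 2 on OP9-DLL1). Rps9, near the mRNA entry channel, had 2591 to 2859 CPM in monocytes and 3349 to 3527 in cMoPs, with differences of 0.37 and 0.28. Its call on OP9 (limma-trend adjusted p = 0.0085) was lost without either cMoP library on OP9, and that on OP9-DLL1 (adjusted p = 0.03) was lost when any library but the 2 of monocytes on OP9 was left out.

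A few members did not share the difference. Rps27, a zinc-binding protein of the small subunit, had 484 and 435 CPM in monocytes on OP9, 501 and 508 on OP9-DLL1, 482 and 459 in cMoPs on OP9 and 451 and 440 on OP9-DLL1. The cell types overlapped, and the limma-trend differences were 0.04 (SE 0.10, adjusted p = 0.77) on OP9 and -0.18 (SE 0.10, adjusted p = 0.16) on OP9-DLL1. Without either monocyte library on OP9, Rps27 passed as lower on OP9-DLL1. In the annotation 98.0% of the 150-base windows of Rps27, the length of a read, are also found in Gm17241 or Rps27rt, which summed to 103 to 127 CPM in monocytes and 80.8 to 92.8 in cMoPs, so reads could be split between them. The sum of the 3 was 538 to 612 CPM in monocytes and 521 to 575 in cMoPs, and it too overlapped.

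Rps29, another zinc-binding small subunit protein, had 508 and 530 CPM in monocytes on OP9, 619 and 648 on OP9-DLL1, 769 and 672 in cMoPs on OP9, and 646 and 662 on OP9-DLL1. The cell types were apart on OP9 and overlapped on OP9-DLL1. The limma-trend difference was 0.47 (SE 0.11, adjusted p = 0.0044, not passed without cMoP replicate 1) on OP9 and 0.05 (SE 0.11, adjusted p = 0.72) on OP9-DLL1. The test of the gap between the differences, -0.42 (SE 0.15), did not pass after adjustment over all genes (limma-trend adjusted p = 0.4).

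Rpl10, which joins the large subunit late in its maturation, had 1285 to 1631 CPM in monocytes and 1782 to 1901 in cMoPs. Its groups did not overlap, but the difference was small, 0.34 on OP9 (limma-trend adjusted p = 0.041) and 0.27 on OP9-DLL1 (adjusted p = 0.091). The OP9 call was lost when any library but monocyte replicate 2 on OP9 was left out, and without the mean-variance trend. The OP9-DLL1 value passed without either monocyte library on OP9 and under several other alternatives. Rpl10 shares 90.9% of its windows with 8 copies, which summed to 165 to 210 CPM. Rpl35, beside the tunnel through which the new chain leaves, had 535 and 341 CPM in monocytes on OP9 and 327 and 338 on OP9-DLL1, 550 and 576 in cMoPs on OP9 and 632 and 571 on OP9-DLL1. It differed by 0.40 on OP9 (limma-trend adjusted p = 0.088, passed under some alternatives, among them the authors' own adjusted p) and 0.85 on OP9-DLL1 (adjusted p = 0.0032). Of Rpl35's exonic length 68.3% overlaps Wdr38, at 0.530 to 1.53 CPM, and 6.6% Arpc5l, at 70.4 to 147 CPM. Both lie on the opposite strand, which the kit does not mark. Of its windows 67.0% are shared with other transcripts.

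Rps10 and Rpl24 were counted at 2.56 to 5.66 and 3.39 to 5.69 CPM, far under most members. On the annotation used here 91.6% of Rps10's exonic length overlaps a readthrough gene with Nudt3 on the same strand, and 71.5% of Rpl24's overlaps Gm28037, neither of which was analysed here. The processed copy Rps10-ps2 had more reads than Rps10 itself, with 19.6 to 32.0 CPM in monocytes and 36.3 to 50.0 in cMoPs, and the copies of Rpl24 summed to 63.0 to 99.0 CPM. The values of Rps10 (0.41 and 0.97, limma-trend adjusted p = 0.25 and 0.016) and of Rpl24 (0.19 and 0.25, adjusted p = 0.57 and 0.45) are therefore uncertain as gene levels, and the Rps10 call was lost without either monocyte library or without cMoP replicate 2 on OP9-DLL1.

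**Figure D3:**
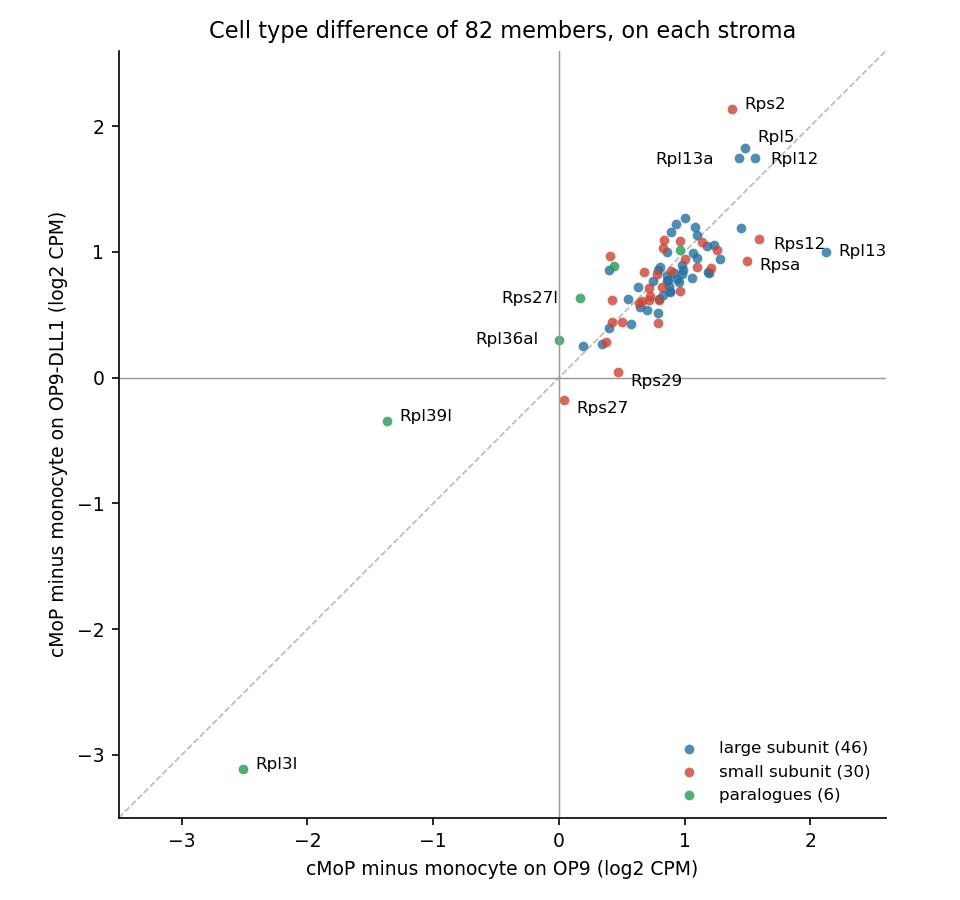
Difference between cMoPs and monocytes in log2 CPM for each member, on OP9 (horizontal axis) and on OP9-DLL1 (vertical axis), coloured by subunit, with the dashed line at equal differences. Most large and small subunit genes lie in 1 cloud around the medians of 0.86 and 0.82, Rps27 and Rps29 lie at or near zero on the vertical axis, and Rpl3l lies far below.

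The paralogues, which resemble a canonical member but are often limited to some tissues, departed from their partners in some pairs. Rpl3l, a form of Rpl3 known from striated muscle, was covered by 45 and 54 reads in monocytes on OP9, 188 and 99 on OP9-DLL1, 12 and 9 in cMoPs on OP9 and 20 and 16 on OP9-DLL1. These are few reads, at most 3.87 CPM, and monocytes and cMoPs did not overlap. The differences were -2.51 (SE 0.56, limma-trend adjusted p = 0.0046) and -3.11 (SE 0.56, adjusted p = 0.0013), while those of Rpl3 were 0.93 and 1.22. Rpl39l, a form of Rpl39 known from testis, had 8 to 66 reads in any library and differed by -1.36 and -0.34 (limma-trend adjusted p = 0.29 and 0.79), where Rpl39 differed by 1.19 and 0.84.

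Rps27l, a p53-inducible form of Rps27, had 373 and 313 CPM in monocytes on OP9, 237 and 264 on OP9-DLL1, 371 and 399 in cMoPs on OP9 and 385 and 389 on OP9-DLL1. The cell types overlapped on OP9 and were apart on OP9-DLL1. The limma-trend differences were 0.17 (SE 0.12, adjusted p = 0.25, passed without monocyte replicate 1 on OP9) and 0.63 (SE 0.12, adjusted p = 0.0017), and the gap between them was 0.46 (adjusted p = 0.42). Rpl36al, a form of Rpl36a, had 14.1 to 21.2 CPM in monocytes and 17.2 to 20.9 in cMoPs. Its differences were -0.00 and 0.30 (limma-trend adjusted p = 0.99 and 0.14), against 1.44 and 1.19 for Rpl36a. On the annotation used here 63.1% of Rpl36al's exonic length overlaps Gm49383 on the same strand, which was not analysed here. Of its windows 53.6% are shared with other transcripts. How such reads were counted is not known, so the values of Rpl36al are uncertain as gene levels.

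The other paralogues moved with their partners. Rpl22l1 had 36.6 to 45.0 CPM in monocytes and 73.5 to 85.1 in cMoPs, with differences of 0.96 and 1.01 beside 0.94 and 0.78 for Rpl22, an RNA-binding member with a role in lymphocyte development. Rpl7l1, which acts in assembly of the large subunit, had 229 to 337 CPM in monocytes and 389 to 445 in cMoPs. Its differences were 0.44 and 0.89 (limma-trend adjusted p = 0.027 and 0.00067), beside 0.88 and 0.73 for Rpl7, and the first was lost without monocyte replicate 2 on OP9, without either cMoP library on OP9, with only the 4 libraries of the comparison and without the mean-variance trend.

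Per kilobase of transcript, which is the scale on which genes can be set side by side, the highest members in monocytes on OP9 were Rps19 with 4045 CPM per kb, Rps14 with 3847, Rps9 with 3453, Rps18 with 3071 and Rpl32 with 2876. In cMoPs on OP9 the same 5 stood at 5376, 5158, 4473, 5488 and 5017 CPM per kb. At the other end in monocytes on OP9 were Rpl3l with 0.751 CPM per kb, Rpl39l with 1.51, Rpl24 with 6.61, Rps10 with 7.73 and Rpl13a with 27.3. The counted mRNA levels of the members thus differed by orders of magnitude. For Rpl24, Rps10 and Rpl13a the overlapping annotation described above bears on the count.

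Shared sequence was common among the members. At least 1 window of 150 bases was also found in a transcript of another gene for 69 of 82 members, and more than 50% of windows were shared for 25. Of those 25, 20 were higher in cMoPs on each stroma, with medians of 0.86 and 0.90 log2 units. They include members named above for their differences: Rpl5 (88.2% of windows shared), Rps12 (87.2%), Rps6 (82.4%) and Rpl36a (81.1%). Reads of these too could be split between genes. Rpl12, Rpl14 and Rpsa shared 44.4%, 31.4% and 22.8%. Of the 13 members with no shared window 10 were higher on OP9 and 11 on OP9-DLL1, with medians of 0.72 and 0.78. The 13 include the paralogues Rpl3l, Rpl7l1, Rpl39l and Rps27l, and the part of shared sequence in the differences was not tested. The 167 annotated ribosomal protein pseudogenes in the table, whose reads may come from the members, took 0.278% to 0.319% of reads in monocytes and 0.442% to 0.495% in cMoPs. Of them, 90 were higher and 0 lower on OP9 (median 0.60) and 86 were higher and 1 lower on OP9-DLL1 (0.64). The shares over all genes tested were 28.8% higher and 27.7% lower on OP9, and 28.2% and 29.2% on OP9-DLL1.

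Of the ribosomal proteins outside the name rule, Rack1 and Rps3a1 were higher in cMoPs on both stromas. Rack1, a scaffold on the small subunit, had 845 to 977 CPM in monocytes and 2038 to 2183 in cMoPs (1.24 and 1.27). Rps3a1, a small subunit protein, differed by 0.98 and 0.94. Fau, a fusion of a ubiquitin-like protein with a small subunit protein, was like Rps27 in its values, with 857 to 1010 CPM in monocytes and 828 to 896 in cMoPs and differences of 0.00 and -0.21 (limma-trend adjusted p = 1 and 0.091).

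Other genes of the translation machinery were also higher in cMoPs. The counts below stand beside 28.8% of all genes tested higher and 27.7% lower on OP9, and 28.2% and 29.2% on OP9-DLL1. All 8 genes listed as elongation factors were higher on each stroma (medians 1.10 and 1.32). Among them were Eef1b2 (1.60 and 1.32), Eef1g (1.17 and 1.53) and Eef1a1 (0.60 and 0.45), which carries aminoacyl-tRNA to the ribosome. Of 36 initiation factor genes 29 were higher and 1, Eif4g3, was lower on each stroma (medians 0.80 and 0.83). Eif4g3, a scaffold of cap-dependent initiation, differed by -1.30 and -1.19. Of 19 further mRNAs with a TOP start 15 were higher on each stroma (medians 0.96 and 1.09), including Hnrnpa1 (2.17 and 2.62). Cnbp, counted below among the TOP regulators, was higher by 1.49 and 1.78. Tpt1, a classical TOP mRNA, was at 343 to 495 CPM in monocytes and 326 to 472 in cMoPs, with differences of -0.06 and -0.17 (limma-trend adjusted p = 0.77 and 0.42).

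All 9 host genes of small nucleolar RNAs, whose introns give guides for ribosomal RNA modification, were higher on each stroma (medians 2.10 and 2.19), with Gas5 at 1.65 and 1.97 and Zfas1 at 2.71 and 2.48. Of 7 chaperones of ribosomal proteins and genes of the p53 link, 5 were higher on each stroma, with 1 and 0 lower. Over all genes tested 28.8% and 28.2% were higher and 27.7% and 29.2% lower, on OP9 and OP9-DLL1. Grwd1, a chaperone of Rpl3, differed by 2.39 and 3.40, Tsr2, a chaperone of Rps26, by 2.28 and 2.18, and Heatr3, an importer of Rpl5, by 1.65 and 2.0. Mdm2 was the lower gene on OP9, at -0.45 (limma-trend adjusted p = 0.034).

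Of 18 TOP regulators and mTOR pathway genes 7 were higher and 1 lower on OP9 and 5 higher and 3 lower on OP9-DLL1 (medians 0.17 and 0.10). Among all genes tested 28.8% were higher and 27.7% lower on OP9, and 28.2% and 29.2% on OP9-DLL1. Larp1 was higher by 1.39 and 1.31, Pdcd4, an inhibitor of the helicase Eif4a1, by 1.79 and 0.93, and Tsc1, an inhibitor of mTOR complex signalling, was lower by 0.71 and 0.92. Of 10 genes of ribosome rescue and quality control 3 were higher and 2 lower on OP9 and 4 higher and 1 lower on OP9-DLL1, with Abce1, which splits ribosomes, higher by 1.28 and 1.59. The regulators and the quality control genes thus had medians much nearer to that of all genes than the ribosomal proteins had.

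The comparison of OP9-DLL1 with OP9 asks what 6 hours of contact with the Notch ligand changed. In monocytes 1 of the 82 members, Rpl13, rose and 0 fell (limma-trend, adjusted p under 0.05), against 3.36% and 3.03% of all genes tested. At an unadjusted p under 0.05 there were 6 higher and 4 lower members, against 11.2% and 10.6% of all genes, and the count lower was 1 by voom and 0 by voom with library weights. The median member difference was 0.05 log2 units, beside 0.01 over all genes, and -0.03 when each library was centred on its median. The standard deviation across members was 0.31, against 0.70 for all genes and 0.25 to 0.46 in the lists of other translation genes. Of the 82 members 59 lay within 0.2 log2 units of zero, as did 38.3% of all genes. Large and small subunit genes had medians of 0.05 and 0.07. In the same comparison 2 of 3 erythroid and megakaryocyte markers were lower, 2 of 4 dendritic cell markers were higher, and 3 of 10 monocyte markers were lower and 1 higher. The part of these in the members' values was not tested.

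Rpl13, a protein on the outer face of the large subunit, had 261 and 581 CPM in monocytes on OP9, 968 and 1699 on OP9-DLL1, 1832 and 1578 in cMoPs on OP9 and 1980 and 3327 on OP9-DLL1. In monocytes both OP9-DLL1 values lay above both OP9 values, and the replicates of 3 of the 4 groups differed widely. The rise in monocytes was 1.72 log2 units (SE 0.39, limma-trend adjusted p = 0.0332). It was 1.14 (adjusted p = 0.0648) without monocyte replicate 1 on OP9. The call was also lost without either monocyte library on OP9-DLL1 (adjusted p = 0.0582 and 0.237), without either cMoP library on OP9 (0.0656 and 0.0665), without the mean-variance trend (0.134) and with only the 4 monocyte libraries (0.0845), and over all alternatives the adjusted p ran from 0.00197 to 0.237. In cMoPs the value was 0.59 (SE 0.39, limma-trend adjusted p = 0.72), and the gap between the responses was -1.13 (adjusted p = 0.55). Rpl13 shares 77.2% of its windows with other transcripts, and its 4 copies in the table stood at 33.5 and 59.1, 75.2 and 110, 125 and 120, and 130 and 213 CPM in the order of groups above, which followed Rpl13 itself. Between the cell types Rpl13 differed by 2.13 on OP9 (SE 0.39, limma-trend adjusted p = 0.0014) and by 1.0 on OP9-DLL1 (SE 0.39, adjusted p = 0.05, just above the threshold and passed under most alternatives).

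The next members in each direction in monocytes did not pass. Rpsa was at 0.49 (SE 0.16, limma-trend adjusted p = 0.1), and all of its OP9-DLL1 values (1381 and 1522 CPM) lay above its OP9 values (867 and 1228 CPM). Rpl5 was at -0.40 (SE 0.13, limma-trend adjusted p = 0.096), with 427 and 467 CPM against 529 and 657. Rps27l was at -0.45 (SE 0.12, limma-trend adjusted p = 0.058), with 237 and 264 CPM against 373 and 313. Rps27l passed by voom and Rps27l and Rpl5 both passed as lower with libraries centred on their medians. Rps12, Rps29 and Rplp0 stood at 0.36, 0.29 and 0.27, and Rps10, Rpl36al and Rpl35 at -0.52, -0.41 and -0.36. Rpl3l, at 45 and 54 reads on OP9 and 188 and 99 on OP9-DLL1, was at 1.41 (SE 0.56, limma-trend adjusted p = 0.18).

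**Figure D4:**
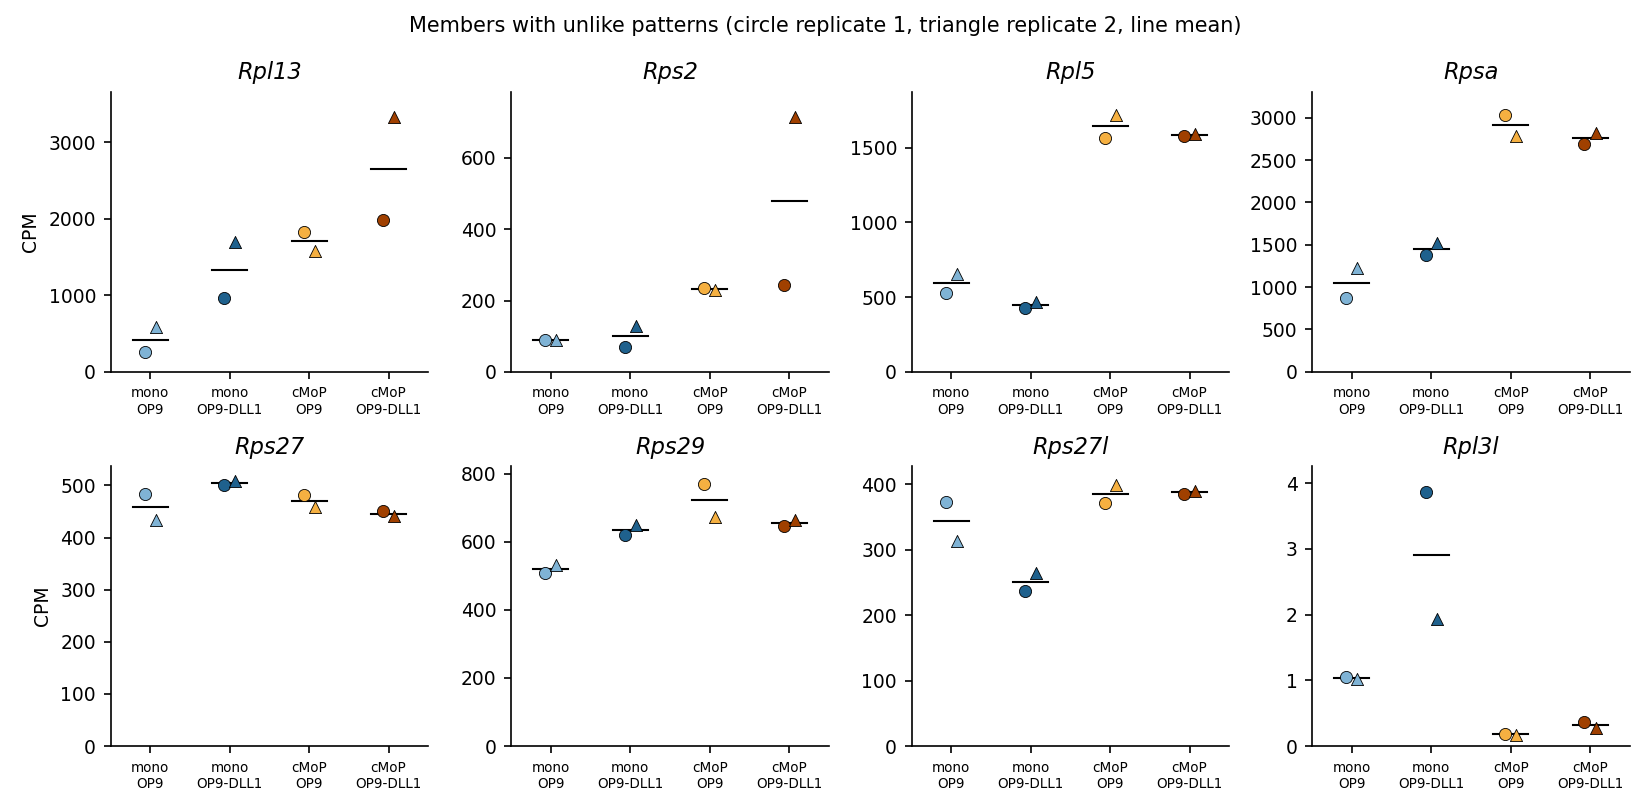
CPM of 8 members with unlike patterns in the 4 groups, with circles for replicate 1, triangles for replicate 2 and a line at the mean of each group (n = 2), each panel with its own axis from 0. Rpl5 and Rpsa step up between the cell types, Rps27 stays between 435 and 508 CPM, Rpl13 is higher on OP9-DLL1 in monocytes, and 1 library lifts Rps2 to 715 CPM.

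Monocyte replicate 1 on OP9 held the lowest share of member reads, 5.05%. The replicates of that group differed by a median of 0.253 log2 units per member, and those of the other groups by 0.0612 to 0.0766. Over all genes tested the medians were 0.335 in that group and 0.171 to 0.195 in the others. Without monocyte replicate 2 on OP9, leaving replicate 1 as the lone library of its group, 21 members were higher and 5 lower on OP9-DLL1, where 9.93% of all genes were higher and 8.67% lower. Without replicate 1 there were 1 higher and 3 lower, against 4.61% and 3.84% of all genes, and Rpl13 was not among them.

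In cMoPs 0 of the 82 members rose and 0 fell on OP9-DLL1 (limma-trend), against 0.464% and 0.307% of all genes tested, with 0 members also at an unadjusted p under 0.05 (5.24% and 4.23% of all genes) and by voom. The median was -0.02 and the standard deviation across members 0.17, against 0.54 over all genes. In the lists of other translation genes it was 0.09 to 0.29. Of the members 77 of 82 lay within 0.2 log2 units of zero, where 51.9% of all genes did. The exceptions above were Rps2 at 0.84 (SE 0.43, limma-trend adjusted p = 0.61), which was 0.07 without cMoP replicate 2 on OP9-DLL1 and 1.62 without replicate 1, and Rpl3l, Rpl13 and Rpl39l, at 0.81, 0.59 and 0.44. Rpl24 was lowest at -0.26, followed by Rpl30, Rps21, Rpl22, Rpl23 and Rpl39, at -0.18 to -0.15.

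No member passed the test of whether cMoPs and monocytes responded differently (limma-trend, 0 higher and 0 lower), which 0.0299% and 0.0224% of genes did. At an unadjusted p under 0.05 there were 1 higher and 2 lower members, against 5.18% and 4.61% of all genes, and by voom 0. The gaps for Rps29 (-0.42), Rps27l (0.46) and Rpsa (-0.57) had limma-trend adjusted p = 0.4, 0.42 and 0.45. Without monocyte replicate 2 on OP9, 5 members passed as higher and 11 as lower, as did 4.45% and 3.96% of all genes.

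**Figure D5:**
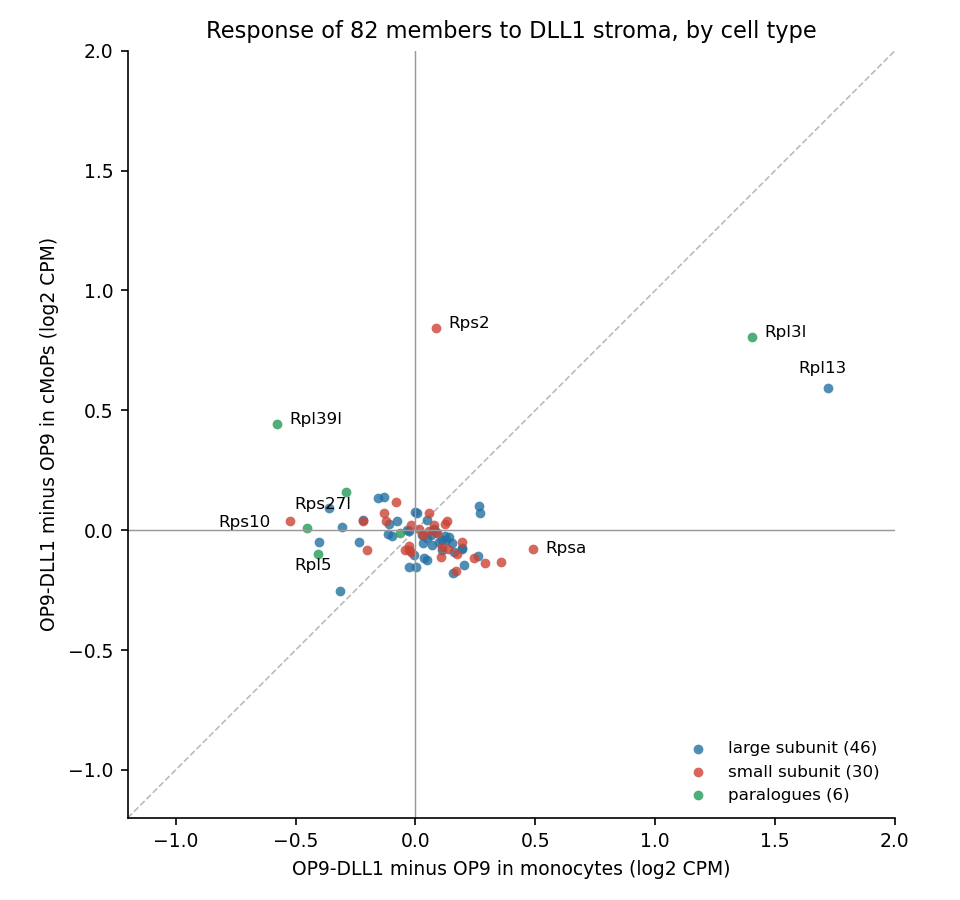
Difference between OP9-DLL1 and OP9 in log2 CPM for each of the 82 members, in monocytes (horizontal axis) and in cMoPs (vertical axis), coloured by subunit, with the dashed line at equal responses. Nearly all members cluster around zero, Rpl13 lies at 1.72 and 0.59, Rpl3l at 1.41 and 0.81, and Rps2 at 0.09 and 0.84.

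Genes of other translation lists changed in monocytes on OP9-DLL1, where 3.36% of all genes tested rose and 3.03% fell. Of the 8 genes listed as elongation factors 2 fell, Eef1e1 (-1.04, limma-trend adjusted p = 0.0015) and Eef1d (-0.42, adjusted p = 0.042). Eef1d was also the 1 of 19 further TOP mRNAs that fell. Of 36 initiation factor genes 4 fell and 1 rose, among them Eif2s1, a subunit of the factor that brings the initiator tRNA, at -0.74 (limma-trend adjusted p = 0.0052), Eif4e, the cap-binding protein, at -0.59 (adjusted p = 0.015), and Eif2b2, which rose by 0.88 (adjusted p = 0.0046). Pdcd4 rose by 1.03 (limma-trend adjusted p = 0.012), from 4.88 and 5.09 CPM to 9.31 and 11.2 CPM, while Larp1 stood at -0.14 (adjusted p = 0.51). Grwd1 fell by 1.05 (limma-trend adjusted p = 0.0019), from 33.0 and 32.7 CPM to 16.7 and 15.0 CPM, while its client Rpl3 stood at -0.16 (adjusted p = 0.4). Usp10, which removes ubiquitin from ribosomal proteins, fell by 0.61 (limma-trend adjusted p = 0.025). The 9 small nucleolar RNA host genes had 0 calls and a median of -0.29. None of these lists had a call in cMoPs, where 0.464% of all genes tested rose and 0.307% fell.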

How the data were processed

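RNA was made into libraries with a kit that does not mark strand and read as 150-base pairs, per the labels' protocols. STAR 2.7.9a, featureCounts 2.0.3, Salmon 1.5.2, edgeR and limma are named with mm10 in the submitters' processing notes. No annotation release is named there. The deposited table gives log2 CPM values that the authors computed, and the reads behind them came out whole (tolerance 0.001) with 0.5 reads added to each count. The p-values in the authors' deposited table served as 1 alternative only, and the authors' signed linear fold changes (a score, negative below 1) were not used. Of 13430 rows 42 repeats were dropped.

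All 8 libraries entered 1 limma-trend fit (limma 3.58.1, R 4.3.3) with a mean per group and 4 residual degrees of freedom, over genes with at least 1 CPM in at least 2 libraries, and p-values were adjusted over all of them at 0.05. The fit was checked on simulated data. Differences are on the log2 CPM scale and understate those of low genes. Named members were, per comparison, the 6 highest and 6 lowest, with paralogues and their partners, the stalk proteins and Rpsa, Rps27a, Rps6, Rpl5, Rpl11, Rps19 and Rps14, and from other lists up to 4 genes by adjusted p. A member named in 1 comparison is given in the others too. Rps9, Rps18, Rpl28, Rpl32 and the genes named as exceptions in a list were added after their values were seen. Members and lists were chosen with earlier results of these data known. Gene positions and shared windows came from GENCODE M21, promoters from RefSeq. Alternatives were other library scalings, no trend, voom, no filter, only the libraries compared, a replicate block and leaving out each library.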

Additional observations from a re-analysis of the deposited data

How the results depend on the processing

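Of the 140 results picked by the rule for named members 45 passed, and 39 of those passed under every alternative, while 28 of the 95 that did not pass did so under some alternative. In monocytes the count of members higher on OP9-DLL1 was 1, and 0 without the mean-variance trend and with only the 4 libraries of the comparison, both of which removed Rpl13; it ran from 0 to 21 when single libraries were left out. The count lower was 0 (3.03% of all genes), and 2 with libraries centred on their medians (4.08%) and 1 by voom (3.24%). For the gap between responses the counts were 0 to 5 higher and 0 to 11 lower without single libraries. In cMoPs no alternative gave a call. Between cMoPs and monocytes the members' median ran from 0.76 to 0.96 on OP9 without single libraries, and from 0.77 to 0.85 on OP9-DLL1. The Rps2 gap between responses, which did not pass, changed sign to -0.02 without cMoP replicate 2 on OP9-DLL1. Over all genes, same-numbered replicates deviated together only weakly (correlations of 0.0227 to 0.0891, all positive), and the numbers were not taken to pair the samples. With the replicate block 1 member was higher and 0 lower in monocytes on OP9-DLL1, against 4.29% and 3.62% of all genes. That member was Rpl13, with limma-trend adjusted p = 0.00591 against 0.0332 in the main fit. In cMoPs 74 members were higher than in monocytes on OP9 (29.3% of all genes) and 75 on OP9-DLL1 (29.1%). Over all genes, the monocyte response had 855 calls with 52.6% higher, and 906 with 39.8% higher when libraries were centred on their medians. With 2 libraries per group, leaving out 1 leaves a lone library that is assumed to vary like the other groups. Among the members, depth limits Rpl3l and Rpl39l most, at 8 to 188 reads. The causes of these changes were not tested.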
